A study of Mus musculus with 12 samples.

Results

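Gene expression after a run was compared with expression at rest in the gastrocnemius (calf) of male cFeimin MKO mice, the study's knockout of cellular Feimin (MKO below). Members of the comparison were all genes with at least 10 counts in 3 or more of the 6 MKO libraries, which kept 14188 of 43432 gene identifiers. The exercised group held 3 RNA sequencing libraries (replicates 1, 2 and 4) taken after a 90 min run at 60% of each mouse's maximal speed, and the sedentary group held 3 (replicates 1, 2 and 3). Both groups were MKO, so the knockout was shared by runners and controls. Where the running response was set beside that of mice with the gene intact, 3 exercised and 3 sedentary libraries of fl/fl littermates (WT, floxed alleles) were used. The labels' protocols speak of 18 libraries, of which 12 were analysed here. Strain, age, the driver of the knockout, the delay between run and sampling and the hour of sampling: none of these is given in the sources used here. A difference in hour between the groups therefore cannot be told apart from the run.

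Contracting muscle meets an abrupt rise in calcium, ATP turnover, temperature and mechanical load. Within the first hours its nuclei switch on immediate-early genes, whose products are transcription factors that need no new protein synthesis to be induced, followed by genes of heat shock protection, fuel choice and remodelling. Among the known drivers are the kinase pathways that act on CREB and SRF, the heat shock factor HSF1, and FOXO and PPAR factors that set the use of fat and glucose. The study's title ties Feimin to running performance and to heat production by muscle.

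The 6 MKO libraries held 14324010 to 14563501 counts each, and a count of 3 corresponded to 0.181 to 0.222 CPM (read counts scaled to library size with TMM factors, normalised CPM). The labelled tissue held in each of them: the 16 muscle fibre markers summed to 156000 to 203200 CPM. On the leading principal component of these libraries (39.4% of the variance), sedentary replicates lay at -18.2, -26.8 and -33.4 and exercised ones at 17.1, 34.7 and 26.6. Sedentary replicate 3 stood apart, with the highest TMM factor (1.15), a mitochondrial share of counts of 16.9% against 21.2% to 22.6% in the other 5, and slow-fibre markers summing to 313 CPM against 1891 to 2871. The labels do not pair the name Feimin with a gene. Going by general knowledge, B230219D22Rik was read as the targeted gene (2 exons on chromosome 13 of GRCm38, 55693124 to 55703500). It stood at 6.13, 5.01 and 3.63 CPM in sedentary replicates 1, 2 and 3 and at 4.59, 4.07 and 3.52 CPM in exercised replicates 1, 2 and 4, and it did not pass the test of running (log2 fold change -0.27 ± 0.20, edgeR quasi-likelihood test, adjusted p = 0.596). Here and below ± is the standard error of a log2 fold change, and p-values were adjusted by Benjamini-Hochberg over all 14188 genes. In the 6 WT libraries it ranged from 21.7 to 29.9 CPM, above every MKO library. Nothing in the labels says that the libraries of a group came from separate animals, so the p-values cover only the differences among the libraries at hand, which may be technical.

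After the run 582 of 14188 genes passed at an adjusted p under 0.05, or 4.10% of those tested, with 326 higher (2.30%) and 256 lower (1.80%). Counts of calls in the lists below are to be read beside these shares. The increases were the larger changes: 198 genes rose and 97 fell by more than 2-fold, and 58 rose and 6 fell by more than 4-fold. The median log2 fold change was 1.13 among genes that rose, -0.90 among genes that fell and 0.0022 over all genes tested. All 582 had 3 exercised values beyond all 3 sedentary ones, which was also the case for 3092 of all genes tested (21.8%). A gene seen in 1 state alone could enter the test only by its high group: 38 genes reached 10 counts in exercised libraries only, of which 19 rose, and 74 in sedentary libraries only, of which 13 fell. The 3 exercised libraries differed in strength. Over the genes that rose, the median log2 distance from the sedentary mean was 1.0 in exercised replicate 1, 1.26 in replicate 2 and 1.08 in replicate 4, and replicate 2 was the highest of the 3 in 199 of the 326 genes. Without exercised replicate 2 the count that passed was 318, and without sedentary replicate 2 it was 344. Leaving out sedentary replicate 3 together with exercised replicate 4, chosen after the data were seen, gave 359. Scaling by total counts alone moved the median of all genes to -0.15 and gave 848 genes, 255 higher and 593 lower, so that 30.1% of calls were increases against 56.0%. List medians given below shift downwards with that scaling too, and those of the clock, cAMP, oxidative stress, glycolysis, fatty acid and thermogenesis lists turn negative.

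**Figure D1:**
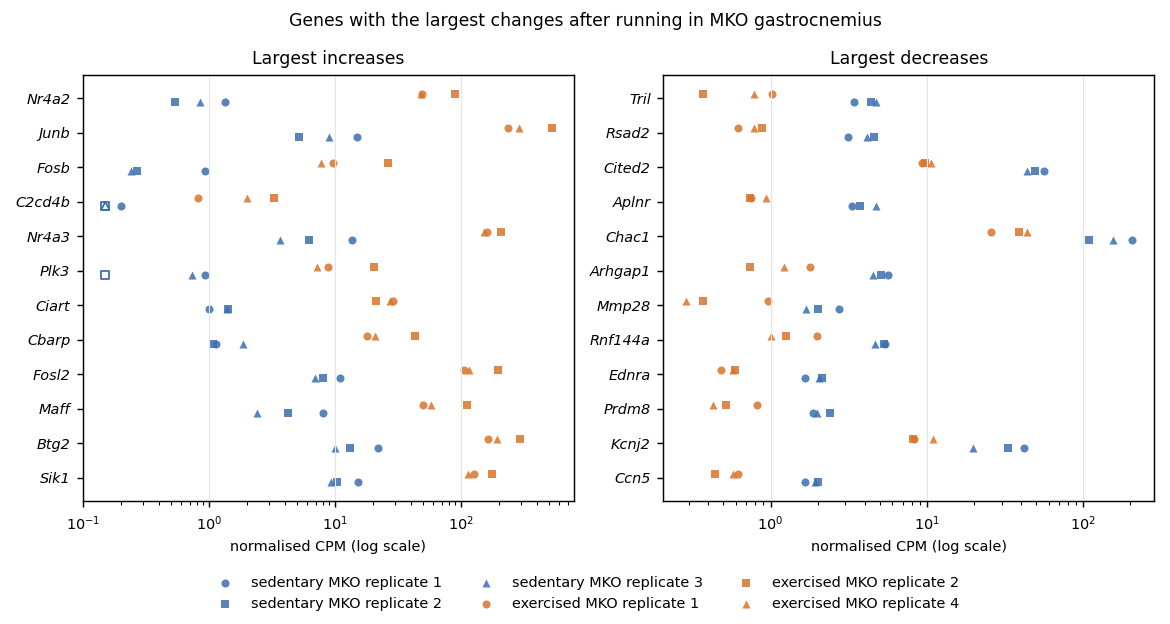
Normalised CPM (log axis) of the 12 largest increases (left) and the 12 largest decreases (right) in each of the 6 MKO libraries. Blue marks are sedentary and orange marks exercised libraries, the shape gives the library, and open marks at the left edge are libraries with 0 counts. In every gene shown the 3 exercised libraries lie on one side of the 3 sedentary ones, and Nr4a2 goes from at most 1.33 to at least 48.3 CPM.

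Immediate-early transcription factors gave the largest increases. Of 31 listed genes 30 were tested; 16 rose and none fell, beside 2.30% and 1.80% of all genes, and their median log2 fold change was 1.33. Nr4a2 (ENSMUSG00000026826; chromosome 2, 57106830 to 57124003, minus strand), an orphan nuclear receptor induced by cAMP and calcium, stood at 1.33, 0.534 and 0.846 CPM in the sedentary libraries and at 49.2, 89.7 and 48.3 CPM in the exercised ones, each in the order of replicates given above. The lowest exercised value was thus far above the highest sedentary one, and the log2 fold change was 6.1 ± 0.34 (adjusted p = 5.61e-06). Its relative Nr4a3, which takes part in the control of glucose and fatty acid use in muscle, went from 13.7, 6.21 and 3.69 to 161, 208 and 152 CPM (4.47 ± 0.43, adjusted p = 0.000204). The third member, Nr4a1, named here after its values were seen, was already abundant at rest, at 115, 90.1 and 62 CPM, and reached 453, 595 and 342 CPM (2.38 ± 0.31, adjusted p = 0.00161). All 3 receptors rose, the one with the lowest level at rest by the largest ratio.

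The partners that make up the AP-1 factor moved unequally. Junb (chromosome 8, 84974484 to 84978718, minus strand) had 15, 5.21 and 9.01 CPM at rest and 238, 524 and 288 after running, with exercised replicate 2 highest (5.17 ± 0.41, adjusted p = 6.14e-05). Fosb, almost silent at rest with 0.932, 0.267 and 0.242 CPM, reached 9.59, 26.4 and 7.68 (4.91 ± 0.61, adjusted p = 0.00108). Fosl2, another FOS family member, went from 10.9, 8.01 and 6.89 to 105, 196 and 116 CPM (4.02 ± 0.26, adjusted p = 1.25e-05). Fos itself, named after its values were seen, was uneven at rest, with 16.3, 2.4 and 2.06 CPM, and stood at 28.9, 75.7 and 66.4 CPM after the run (3.05 ± 0.62, adjusted p = 0.0162); the call was lost without sedentary replicate 2 or exercised replicate 2 (adjusted p = 0.0639 and 0.0601). Jun, also singled out afterwards, did not pass: its levels were 100.2, 87.8 and 75.9 CPM at rest and 75.5, 77.7 and 73.5 CPM after running (-0.22 ± 0.18, adjusted p = 0.642). Junb overlaps Prdx2 on the opposite strand by 173 exonic bases, Jun overlaps Junos by 232, and the sources used here do not say whether strand was used in counting. Maff, a small MAF protein that pairs with AP-1 and NRF2 factors, rose from 7.99, 4.21 and 2.42 to 49.4, 111 and 57.4 CPM (3.9 ± 0.45, adjusted p = 0.000706). The other risers of the list were Mafk, Csrnp1, Klf4, Egr1, Zfp36, Ier2 and Atf3, together with Btg2. Without 1 MKO library at a time, 13 to 18 members of the list rose.

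Single growth arrest genes and cAMP targets rose as well. Btg2 (chromosome 1, 134075170 to 134079120, minus strand), an antiproliferative cofactor of mRNA decay, went from 21.8, 13 and 9.97 CPM to 164, 295 and 192 CPM (3.86 ± 0.39, adjusted p = 0.000334). Plk3, a stress-responsive polo-like kinase, had 0.932, 0 and 0.725 CPM at rest and 8.83, 20.4 and 7.18 after running (4.42 ± 0.59, adjusted p = 0.00172). Of 13 growth arrest genes 5 rose and none fell (median 0.17; 4 and 1 with total counts alone): these 2, the cell cycle inhibitor gene Cdkn1a (1.12 ± 0.23, adjusted p = 0.016), Plk2 (1.05 ± 0.24, adjusted p = 0.0324) and Gadd45b. Without sedentary replicate 1 or exercised replicate 2 the list had 2 risers, without sedentary replicate 2 or exercised replicate 4 it had 3, and its median ran from 0.10 to 0.32 without 1 MKO library at a time. The call of Cdkn1a was lost without sedentary replicate 1 or 2 or exercised replicate 2 or 4 (adjusted p = 0.0566 to 0.0677). That of Plk2 was lost without sedentary replicate 1 or 2 or exercised replicate 2 or 4 (adjusted p = 0.0606 to 0.136). Sik1, a salt-inducible kinase that holds CRTC coactivators of CREB out of the nucleus, rose from 15.1, 10.4 and 9.25 to 127, 176 and 113 CPM (3.58 ± 0.33, adjusted p = 0.000159). Crem, which encodes the CREB-type repressor ICER among its products, rose from 6.13, 4.94 and 5.44 to 13.4, 23.4 and 19 CPM (1.75 ± 0.21, adjusted p = 0.00103). With Pde4d these were the 3 of 14 listed cAMP and CRTC targets that rose, none fell, and the median of the list was 0.03.

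The promoters of Btg2, Maff and Plk2 are shown, from the RefSeq table of windows (GRCm38.p6), because they were chosen for holding the CRE letters. Of the other named genes that rose, Errfi1, Dio2 and Ppp1r15a hold these letters too, while the window of the cAMP target Pde4d does not and Sik1 and Crem had no window. Windows ran from 250 bases before to 50 after the annotated start; 239 of the 326 genes that rose had one, which is under 80%, so no share over the genes that rose is given. Letters searched on both strands included TGACGTCA (the full cAMP response element, CRE) and CACGTG (the perfect E-box bound by clock and MYC family factors). Searched too were TGANTCA (the AP-1 site) and GAANNTTC (a core of the heat shock element, HSE). The remaining letters were TTATGTAA (the D-box) and CCWWWWWWGG (the CArG box, W being A or T). A CRE match cannot overlap an AP-1 match, while other pairs can share edge letters. Among all 32851 RefSeq windows, 1.79% held the CRE, 7.15% the E-box, 7.81% the AP-1 site and 7.86% the HSE. The D-box was held by 0.938% and the CArG box by 1.63%. Neither of these had a match in the windows examined of genes that rose and were named as largest increases or by list. The stretches below read 5′ to 3′ on the strand of the gene, end before the start of transcription and show the matched letters in capitals. The CRE lies 166 bases before the start in Btg2 (chr1:134079284-134079351), 29 bases before it in Maff (chr15:79347299-79347519, with an E-box 191 bases before it) and 62 bases before it in Plk2 (chr13:110394952-110395019).
Btg2, minus strand: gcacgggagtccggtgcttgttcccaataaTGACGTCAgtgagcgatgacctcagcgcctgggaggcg
Maff, plus strand: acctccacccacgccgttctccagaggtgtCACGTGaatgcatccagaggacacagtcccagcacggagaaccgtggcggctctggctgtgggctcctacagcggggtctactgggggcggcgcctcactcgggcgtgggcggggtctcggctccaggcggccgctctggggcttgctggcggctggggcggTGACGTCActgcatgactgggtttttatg
Plk2, plus strand: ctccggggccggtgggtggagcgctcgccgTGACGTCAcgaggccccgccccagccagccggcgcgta
A match describes these letters only; binding was not measured.

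Outside the listed families, 2 of the 12 largest increases were in genes of low level at rest. C2cd4b, which encodes a nuclear protein with a C2 domain, had 3 counts in the 3 sedentary libraries together and 84 in the exercised ones. Scaled to library size with TMM factors, the ratio was 31.0 with a 95% counting interval of 10.2 to 153 (exact, counting error only). No sedentary library reached 10 counts, so C2cd4b entered the test only by its high group. Its levels were 0.200, 0 and 0 CPM at rest and 0.822, 3.26 and 2.01 CPM after running (adjusted p = 0.0116). It overlaps M5C1000I18Rik on the opposite strand by 627 exonic bases. Cbarp, a regulator of voltage-gated calcium channels, went from 1.13, 1.07 and 1.87 to 17.9, 43 and 20.7 CPM (4.3 ± 0.36, adjusted p = 9.73e-05). Cbarp overlaps Stk11 on the opposite strand by 232 exonic bases; Stk11 held 9347 counts in the 6 libraries against 1195 of Cbarp and had a log2 fold change of 0.66.

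Clock genes rose in part. Of 18 tested, 6 rose and none fell (median 0.10): Ciart, Bhlhe40, Nfil3, Cry2, Per1 and Per2. Ciart (chromosome 3, 95878503 to 95882251, minus strand), a repressor of CLOCK and BMAL1, had 0.999, 1.4 and 1.39 CPM at rest and 28.6, 21 and 27.3 CPM after the run (4.33 ± 0.36, adjusted p = 9.11e-05). Nfil3, which represses D-box genes, rose from 52.9, 29.8 and 24.1 to 99.2, 99.3 and 113 CPM (1.54 ± 0.25, adjusted p = 0.00479). Cry2 went from 21.4, 22.5 and 21.7 to 51.3, 65.2 and 37.1 CPM (1.23 ± 0.20, adjusted p = 0.0054), and Bhlhe40 from 42.6, 37.7 and 40.7 to 64.6, 72.3 and 75.7 CPM (0.81 ± 0.13, adjusted p = 0.00462). Per1 rose from 46.5, 41.9 and 46.1 to 136, 143 and 117 CPM (1.55 ± 0.31, adjusted p = 0.0146), a call lost without sedentary replicate 2 or exercised replicate 2 (adjusted p = 0.0671 and 0.0575). The call of Per2, named after its values were seen (0.74 ± 0.16, adjusted p = 0.0227), was lost without sedentary replicate 2 or 3 or exercised replicate 1 or 2 (adjusted p = 0.0763 to 0.101). The activator genes Clock and Arntl and the repressor genes Nr1d1 and Nr1d2 were among the 12 that did not pass. Without sedentary replicate 2 or exercised replicate 2, 4 genes of the list rose. An effect of the hour of sampling on these genes cannot be told apart from the run. The Ciart promoter is shown because it holds 3 matches: the nearest E-box lies 44 and the farthest 116 bases before the start of transcription (chr3:95882252-95882374).
Ciart, minus strand: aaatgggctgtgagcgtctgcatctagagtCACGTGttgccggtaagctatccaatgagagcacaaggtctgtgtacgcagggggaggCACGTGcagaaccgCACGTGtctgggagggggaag

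Chaperones of the heat shock response rose as a small set. Of 29 listed genes 6 rose and none fell (median 0.23), and 5 to 7 rose without 1 MKO library at a time. Scaled by total counts alone, 5 rose and 1 fell. Hspa1a (chromosome 17, 34969190 to 34972156, minus strand) and Hspa1b (chromosome 17, 34956436 to 34959238, minus strand) encode the inducible HSP70 and are near-identical copies, so reads may have been divided between them. Hspa1a had 18.2, 11.4 and 10.5 CPM at rest and 53.9, 56.1 and 65.5 CPM after running (2.13 ± 0.25, adjusted p = 0.000932). For Hspa1b the levels were 14.1, 8.21 and 8.83 and 52.3, 51.5 and 65.4 CPM (2.44 ± 0.28, adjusted p = 0.000714). Every exercised library held more than 2 times the level of every sedentary one in both. Hsp90aa1, the inducible HSP90, rose from 15.7, 11.2 and 18.4 to 40.7, 34.4 and 43.8 CPM (1.39 ± 0.18, adjusted p = 0.00156), and the HSP40 co-chaperone gene Dnaja1 from 17.1, 13.8 and 17.8 to 29.4, 31.4 and 35 CPM (0.97 ± 0.13, adjusted p = 0.00163). Dnajb1 and the constitutive Hspa8 completed the set. Small heat shock protein genes that are abundant in muscle, such as Cryab and Hspb1, did not pass. The 250 bases before the start were the same at 247 positions (98.8%) in Hspa1a and Hspa1b, and both hold the HSE letters 104 bases before it; the stretch of Hspa1a is chr17:34972223-34972290.
Hspa1a, minus strand: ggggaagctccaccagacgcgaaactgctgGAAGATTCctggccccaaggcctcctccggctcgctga

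Defence against oxidants was represented by 2 of 22 listed genes, with none lower (median 0.10), beside 2.30% and 1.80% of all genes. Nfe2l2, which encodes the NRF2 factor that switches on antioxidant genes, went from 51.4, 27.8 and 25.4 to 78.9, 95.5 and 79.6 CPM (1.28 ± 0.23, adjusted p = 0.00892). Srxn1, the sulfiredoxin that repairs oxidised peroxiredoxins, rose from 40.0, 28.6 and 31.7 to 62.4, 140.3 and 95.3 CPM (1.57 ± 0.24, adjusted p = 0.00361). Its promoter holds 2 matches to the AP-1 letters, 102 and 45 bases before the start (chr2:152105392-152105515). Such letters can form part of the antioxidant response element that NRF2 binds, but that element needs further letters, which were not searched.
Srxn1, plus strand: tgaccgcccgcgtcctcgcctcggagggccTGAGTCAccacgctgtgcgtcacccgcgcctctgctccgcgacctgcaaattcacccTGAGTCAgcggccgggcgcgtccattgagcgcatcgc

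**Figure D2:**
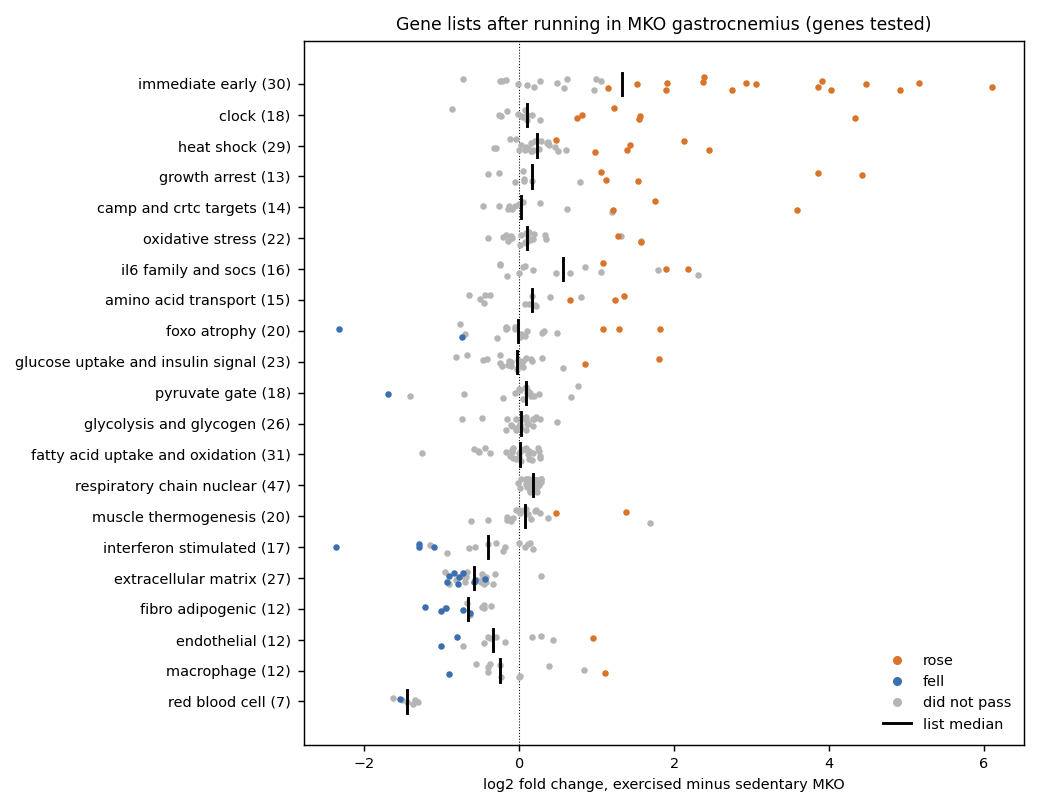
Log2 fold change of every tested member of 21 gene lists (number tested in brackets), exercised minus sedentary MKO. Orange points rose, blue points fell and grey points did not pass; black bars are list medians and the dotted line is the median of all genes. Immediate-early genes spread to the right (median 1.33), extracellular matrix and fibro-adipogenic genes lie to the left (medians -0.58 and -0.66), and the 47 nuclear respiratory chain genes sit close to 0.

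Lists of fuel choice gave few calls. Pdk4 (chromosome 6, 5483351 to 5496309, minus strand), the kinase that shuts off pyruvate dehydrogenase and so spares glucose, stood at 1261, 1101 and 885 CPM at rest and at 326, 253 and 427 CPM after the run. All 3 exercised values were below all 3 sedentary ones, and the log2 fold change was -1.69 ± 0.26 (adjusted p = 0.00361). Pdk4 was the 1 of 18 genes of pyruvate entry to pass. The phosphatase gene Pdp2 of that list was also lower in all 3 exercised libraries, without passing. Hk2, the hexokinase that traps glucose inside the fibre, rose from 245, 232 and 209 to 412, 404 and 423 CPM (0.85 ± 0.13, adjusted p = 0.00384). Irs2, an adaptor of the insulin receptor, went from 17.4, 10.3 and 4.96 to 40.5, 47.5 and 25.9 CPM (1.81 ± 0.45, adjusted p = 0.0453); the call was lost without sedentary replicate 2 or 3 or exercised replicate 1, 2 or 4 (adjusted p = 0.0515 to 0.157). Hk2 and Irs2 were the 2 of 23 genes of glucose uptake and insulin signal to pass. With 4.10% of all genes called, lists of such sizes may hold no call by that share alone. None of 26 glycolysis and glycogen genes passed (median 0.03), and none of 31 genes of fatty acid uptake and oxidation did (median 0.02). The latter median was -0.14 to 0.18 without 1 MKO library at a time, so it had no settled direction.

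Lipid handling was also changed in single genes. Of 19 lipolysis and lipid droplet genes tested 2 rose (Cidea and Gpat3) and Lipe fell, beside 2.30% and 1.80% of all genes. None of the 19 rose without exercised replicate 2. Cidea, a lipid droplet protein best known from brown fat, had 1.13, 0.935 and 0.242 CPM at rest and 2.12, 6.59 and 4.31 CPM after running (2.5 ± 0.48, adjusted p = 0.0129); the call was lost without exercised replicate 2 (adjusted p = 0.0518). Lipe, the hormone-sensitive lipase, fell from 19.1, 20.3 and 17.7 to 12.5, 15 and 12.3 CPM (-0.52 ± 0.12, adjusted p = 0.0383); the call was lost without sedentary replicate 1 or 2 or exercised replicate 1 or 4 (adjusted p = 0.0987 to 0.137). Among 17 genes of the PGC-1, ERR and PPAR network 1 passed, near the 4.10% of all genes. It was Ppard, which encodes a lipid-sensing receptor of muscle (0.54 ± 0.10, adjusted p = 0.0112). Its call was lost without exercised replicate 2 (adjusted p = 0.0515). Of 47 nuclear genes of the respiratory chain 46 had a positive log2 fold change and none passed (median 0.18). That median was 0.03 without sedentary replicate 3, the library with the low mitochondrial share. The 13 mitochondrially encoded genes were all positive and none passed (median 0.26, and 0.15 without sedentary replicate 3).

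The genes tied to heat production were followed because the study's title concerns muscle thermogenesis. Sln (chromosome 9, 53850164 to 53854560, plus strand) encodes sarcolipin, a small peptide that makes the calcium pump of the sarcoplasmic reticulum spend ATP without transport. Its levels were 5.53, 2.94 and 6.35 CPM at rest and 3.97, 3.26 and 40.8 CPM after running, so a single exercised library was high and the groups overlapped. The log2 fold change of 1.69 ± 0.81 did not pass (adjusted p = 0.367) and turned to -0.45 without exercised replicate 4. Neither gene of the pump passed: Atp2a1 had 0.12 ± 0.14 (adjusted p = 0.789) and Atp2a2 had -0.01 ± 0.55 (adjusted p = 0.999), and both changed sign under some of the settings tried. Levels of Atp2a2 were 271, 268 and 31.0 CPM at rest and 177, 191 and 198 CPM after running. Sedentary replicate 3 was thus far below the other libraries, and the groups overlapped. The mitochondrial carrier gene Ucp3 did not pass either (-0.41 ± 0.17, adjusted p = 0.26). Ppargc1a, the coactivator of mitochondrial biogenesis, was higher in each exercised library (86.6, 68.7 and 71.8 CPM) than in any sedentary one (40.9, 30.4 and 18.3 CPM), but its change of 1.34 ± 0.43 did not pass (adjusted p = 0.121). Leaving out exercised WT replicate 5, which enters the shared spread, brought Ppargc1a past the threshold (adjusted p = 0.0253). Dio2, which activates thyroid hormone inside cells, rose from 1.6, 1.2 and 0.725 to 2.12, 3.7 and 3.3 CPM (1.37 ± 0.32, adjusted p = 0.0315); the call was lost without sedentary replicate 2 or 3 or exercised replicate 2 or 4 (adjusted p = 0.0952 to 0.134). Slc25a5, an ADP/ATP carrier of the inner mitochondrial membrane, rose by 0.47 ± 0.12 (adjusted p = 0.0406), a call lost without any 1 of the 6 MKO libraries (adjusted p = 0.0684 to 0.118). These were the 2 of 20 thermogenesis genes that rose, beside 2.30% of all genes, with none lower and a median of 0.08. None of the 20 passed without sedentary replicate 2 or 3 or exercised replicate 2 or 4. Foxc2 was not tested, with 2 to 5 counts per MKO library.

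Regulators of protein balance moved in both directions. Of 20 FOXO and atrophy genes 3 rose and 2 fell (median -0.02), beside 2.30% and 1.80% of all genes. Without 1 MKO library at a time 1 or 2 of the list rose and 1 or 2 fell. Foxo1, a factor of the fasting programme, rose from 25.4, 23 and 18.3 to 71.6, 89 and 75 CPM (1.82 ± 0.41, adjusted p = 0.0291), with the call lost without any 1 of the 6 MKO libraries (adjusted p = 0.0538 to 0.101). Smad3, a mediator of TGF-beta and myostatin signals, rose from 57.3, 56 and 73.2 to 132, 132 and 131 CPM (1.09 ± 0.12, adjusted p = 0.00047). The ubiquitin ligase gene Fbxo32 (atrogin-1), a FOXO target, went the other way, from 553, 421 and 392 to 267, 307 and 246 CPM (-0.74 ± 0.17, adjusted p = 0.0317); the call was lost without sedentary replicate 1 or 2 or exercised replicate 1, 2 or 4 (adjusted p = 0.0615 to 0.124). Cited2 (chromosome 10, 17723218 to 17725674, plus strand), a CBP/p300-binding restrainer of hypoxia-inducible factors, fell from 55.9, 49.4 and 43.8 to 9.31, 9.77 and 10.6 CPM (-2.33 ± 0.17, adjusted p = 4.33e-05). Of 15 amino acid transporter genes 3 rose and none fell (2 and 1 with total counts alone), and 1 rose without sedentary replicate 2: Slc7a1 for basic amino acids went from 2.26, 1.74 and 1.33 to 4.38, 5.26 and 3.95 CPM (1.35 ± 0.22, adjusted p = 0.00452). Slc7a5 and Slc3a2, the 2 chains of the leucine transporter, rose by 1.24 ± 0.23 (adjusted p = 0.00985) and 0.65 ± 0.14 (adjusted p = 0.0232). The call of Slc7a5 was lost without sedentary replicate 2 (adjusted p = 0.0502), and that of Slc3a2 without sedentary replicate 1, 2 or 3 or exercised replicate 2 or 4 (adjusted p = 0.0515 to 0.1). Chac1 (chromosome 2, 119351229 to 119354381, plus strand), which degrades glutathione and is a classical ATF4 target, fell from 205, 108 and 156 to 25.7, 38.6 and 43.9 CPM (-2.12 ± 0.42, adjusted p = 0.0148), while Atf4 itself rose (0.45 ± 0.11, adjusted p = 0.0383). The call of Chac1 was lost without sedentary replicate 1 or exercised replicate 1 or 2 (adjusted p = 0.0509, 0.0621 and 0.0601). That of Atf4 was lost without sedentary replicate 1, 2 or 3 or exercised replicate 2 or 4 (adjusted p = 0.0663 to 0.169).

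Signalling lists outside these gave few calls, to be set beside the 2.30% of all genes that rose and the 1.80% that fell. Of 19 glucocorticoid targets 3 rose (Per1, Cdkn1a and the EGFR inhibitor gene Errfi1) and Fbxo32 fell, with a median of 0.29 (3 and 3 with total counts alone). None of the 19 passed without sedentary replicate 2 or without exercised replicate 2, and none fell without sedentary replicate 1 or exercised replicate 1. Of 16 genes of MAPK feedback 2 rose (Dusp14 and Errfi1) and Spry1 fell (median -0.02; 2 and 2 with total counts alone). None of these rose without exercised replicate 2, and 1 did without sedentary replicate 2 or 3 or exercised replicate 4. Of 23 hypoxia and angiogenesis genes 2 rose and 2 fell (median -0.09): the matrix glycoprotein gene Thbs1 went from 6.39, 2.27 and 3.14 to 13.7, 14 and 15.4 CPM (1.87 ± 0.32, adjusted p = 0.00598), the endothelial nitric oxide synthase gene Nos3 rose too, and Cited2 and Aplnr fell. Only 1 of this list rose without any 1 of the MKO libraries other than exercised replicate 4. Of 18 tested myokine genes none rose and 2 fell, Dcn and Fstl1 (1 without sedentary replicate 1 or 2 or exercised replicate 2), while Il6, Lif, Bdnf, Fgf21 and Gdf15 had too few counts to be tested. Of 15 satellite cell and myogenic genes none rose and 2 fell (Chodl and Vcam1). None of the 15 passed without exercised replicate 2 or 4, and without sedentary replicate 3 none fell and 1 rose. None of 12 neuromuscular junction genes, 27 autophagy and lysosome genes, 25 proteasome genes or 34 ribosomal protein genes passed. With 4.10% of all genes called, lists of such sizes may hold no call by that share alone.

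Among cytokine-responsive genes the smallest p was that of the kinase gene Pim1, a STAT target that promotes survival, at 17.9, 9.82 and 11.5 CPM in sedentary and 46.7, 63.4 and 35.4 CPM in exercised muscle (1.89 ± 0.30, adjusted p = 0.00416). Pim1, Pim3 and Bcl3 were the 3 of 16 genes of the IL-6 family and SOCS list that rose, and none fell (median 0.56). Without sedentary replicate 2 only 1 rose and the median was 0.32; without exercised replicate 4 the median was 0.36 and 2 rose, as without sedentary replicate 1 or 3 or exercised replicate 2. Il6 itself was not tested for want of counts. Of 17 interferon-stimulated genes 4 fell, beside 1.80% of all genes, none rose and 13 did not pass (median -0.40, and -0.24 without sedentary replicate 3). Rsad2 (viperin), an antiviral enzyme, fell from 3.13, 4.61 and 4.11 to 0.616, 0.888 and 0.790 CPM (-2.36 ± 0.28, adjusted p = 0.000944). Ifit3 fell from 3.0, 3.01 and 3.08 to 1.51, 0.814 and 1.36 CPM (-1.29 ± 0.21, adjusted p = 0.0046), and the guanylate-binding protein gene Gbp2 from 5.79, 4.61 and 5.92 to 2.74, 2.81 and 2.08 CPM (-1.1 ± 0.17, adjusted p = 0.00416). The fourth was Ifit2. The largest decrease of all was that of Tril, a co-receptor of Toll-like receptors, from 3.4, 4.41 and 4.71 to 1.03, 0.370 and 0.790 CPM (-2.49 ± 0.27, adjusted p = 0.000462).

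Genes of the extracellular matrix and of the stromal cells that make it were among those that fell. Of 27 matrix genes 9 fell and none rose, 26 had a negative log2 fold change and the median was -0.58. Without 1 MKO library at a time 6 to 9 fell, and the median lay between -0.87 and -0.48. Lama2, the laminin chain of the muscle basement membrane, went from 21.4, 23.8 and 21.8 to 16.1, 14 and 15 CPM (-0.57 ± 0.08, adjusted p = 0.00284). Timp2, an inhibitor of matrix metalloproteinases, went from 87, 88.4 and 93.4 to 64.6, 52.9 and 62 CPM (-0.58 ± 0.09, adjusted p = 0.00378), and the collagen VI gene Col6a1 from 50.2, 56.2 and 54 to 34.7, 21.8 and 33.3 CPM (-0.84 ± 0.15, adjusted p = 0.00721). Each exercised library was below each sedentary one in all 3 genes. The fibrillar collagen genes Col1a1, Col1a2 and Col3a1 did not pass. Markers of fibro-adipogenic progenitors, the connective tissue cells between fibres, were all 12 negative (median -0.66), 5 fell and none rose. Pdgfra (chromosome 5, 75152292 to 75198215, plus strand), the receptor that defines these cells, stood at 18.1, 16.5 and 15.5 CPM at rest and at 8.01, 6.14 and 7.4 CPM after the run (-1.22 ± 0.13, adjusted p = 0.00047). Gsn, gelsolin, fell from 657, 753 and 572 to 389, 313 and 281 CPM (-1.01 ± 0.15, adjusted p = 0.00283) and the matrix protein gene Smoc2 from 67.1, 85.7 and 65.6 to 42.8, 36.9 and 33.5 CPM (-0.95 ± 0.13, adjusted p = 0.00211). The matrix and progenitor lists share Dcn, Col1a1, Col3a1 and Lum. In a whole muscle, fewer cells of a type and less RNA per cell cannot be told apart.

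Vessel, immune and blood markers moved beside these. Of 12 endothelial genes 2 fell and 1 rose (median -0.33): Tek, the angiopoietin receptor (-1.01 ± 0.18, adjusted p = 0.00826), and Vwf were lower, whereas the tight junction gene Cldn5 was higher (0.95 ± 0.21, adjusted p = 0.0286). The endothelial median was -0.19 without exercised replicate 4, and 1 gene fell without sedentary replicate 1 or 2 or exercised replicate 2 or 4. The call of Cldn5 was lost without sedentary replicate 2 or 3 or exercised replicate 2 (adjusted p = 0.108, 0.0843 and 0.0843). Among 11 mural cell genes, those of smooth muscle and pericytes, the pericyte receptor gene Pdgfrb fell from 23.4, 27.7 and 25.8 to 13.1, 11.5 and 11.3 CPM (-1.1 ± 0.13, adjusted p = 0.000944), Notch3 fell too and none rose (median -0.24). Only 1 mural gene fell without any 1 of the MKO libraries other than exercised replicate 1, and the median was -0.13 without sedentary replicate 1 and -0.10 without exercised replicate 4. The summed level of the mural genes went the other way, with 3508, 3639 and 3671 CPM at rest and 3977, 3760 and 4083 CPM after running. A sum follows its most abundant genes, so it gives no direction for the mural list as a whole. The 7 red blood cell genes were each lower in all 3 exercised libraries (median -1.44), while 21.8% of all genes had groups that did not overlap, in either direction. The summed level of the 7 genes was 1815, 2280 and 1360 CPM at rest and 838, 723 and 514 CPM after running. Of these only Hbb-bs passed (-1.53 ± 0.39, adjusted p = 0.0493), a call lost without sedentary replicate 1 or 2 or exercised replicate 1, 2 or 4 (adjusted p = 0.109 to 0.163). The summed level of the 12 progenitor markers was 1227 to 1438 CPM at rest and 614 to 827 CPM after running. Macrophage markers summed to 147 to 186 CPM at rest and 113 to 198 CPM after running, so these ranges overlapped; the scavenger receptor gene Cd163 fell (-0.90 ± 0.18, adjusted p = 0.0139) and Cd14 rose (1.1 ± 0.27, adjusted p = 0.043), a call lost without sedentary replicate 1, 2 or 3 or exercised replicate 2 or 4 (adjusted p = 0.0785 to 0.14). The list median of -0.24 turned to 0.05 without sedentary replicate 3 and was -0.0079 without exercised replicate 2. Markers of neutrophils and lymphoid cells were at most 2.15 and 0.62 CPM in sum, and 3 and 7 of their 10 genes had 0 counts in all 6 libraries. The part of blood content or of cell numbers in the decreases was not tested.

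**Figure D3:**
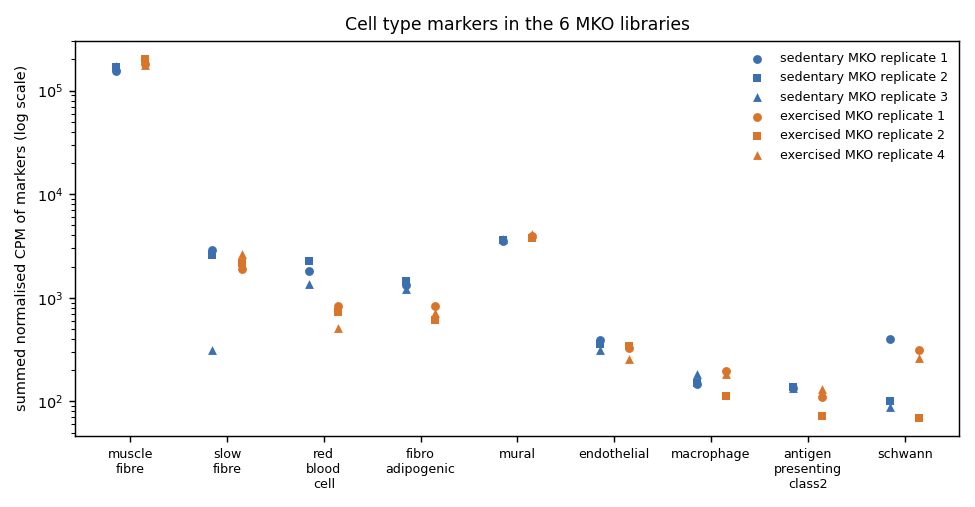
Summed normalised CPM (log axis) of the markers of 9 cell types in each MKO library, blue for sedentary and orange for exercised, with shapes for the libraries. Red blood cell and fibro-adipogenic markers separate the groups (at least 1360 against at most 838 CPM, and at least 1227 against at most 827 CPM), the slow-fibre sum of sedentary replicate 3 lies at 313 CPM, and macrophage markers overlap. The mural sum is higher after running (at least 3760 against at most 3671 CPM), unlike the median of that list.

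The remaining large decreases came from receptors, a channel and regulators of the cytoskeleton and matrix. Aplnr (chromosome 2, 85136225 to 85139923, plus strand), the apelin receptor of endothelial cells, went from 3.33, 3.74 and 4.71 to 0.753, 0.740 and 0.933 CPM (-2.27 ± 0.20, adjusted p = 0.000121). Ednra, the endothelin receptor of smooth muscle, went from 1.67, 2.14 and 2.06 to 0.479, 0.592 and 0.574 CPM (-1.82 ± 0.32, adjusted p = 0.00721). Its exercised libraries held 7, 8 and 8 counts, each below the filter's minimum count. Ednra thus entered the test only by its high group, the sedentary one. Kcnj2, the inward rectifier potassium channel that sets the resting potential of fibres, was more abundant and fell from 41.8, 32.8 and 19.7 to 8.22, 8.14 and 10.9 CPM (-1.79 ± 0.27, adjusted p = 0.0033). It was the 1 of 22 channel and coupling genes to pass, near the 4.10% of all genes. The GTPase-activating protein gene Arhgap1 fell from 5.59, 5.08 and 4.53 to 1.78, 0.740 and 1.22 CPM (-2.0 ± 0.27, adjusted p = 0.00178) and the ubiquitin ligase gene Rnf144a from 5.4, 5.28 and 4.65 to 1.99, 1.26 and 1.01 CPM (-1.84 ± 0.21, adjusted p = 0.000695). The metalloproteinase gene Mmp28 (-1.95 ± 0.33, adjusted p = 0.00652), the chromatin regulator gene Prdm8 (-1.8 ± 0.29, adjusted p = 0.00461) and the matricellular gene Ccn5 (-1.76 ± 0.38, adjusted p = 0.0228) lay between 0.28 and 2.73 CPM in every MKO library. The call of Ccn5 was lost without sedentary replicate 2 or 3 or exercised replicate 1, 2 or 4 (adjusted p = 0.0567 to 0.0969). Like Ednra, Ccn5 entered the test only by its sedentary group, with 9, 6 and 8 counts in the exercised libraries. Mmp28 overlaps 1700020L24Rik by 466 exonic bases and Prdm8 overlaps A730035I17Rik by 1411, both on the opposite strand; the latter had 0 counts.

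The response was then set beside that of WT littermates, tested in the same fit on the same genes. In WT 1164 genes passed (8.20%), 577 higher and 587 lower. Of the 582 MKO calls 494 passed in WT in the same direction (292 higher and 202 lower), which is 84.9% of the MKO calls and 42.4% of the WT calls, and none passed in the opposite direction. A further 84 had the same sign without passing, which left 4 with the opposite sign. Genes that rose in MKO had medians of 1.13 in MKO and 1.33 in WT, and genes that fell had -0.90 and -0.92. The genotypes share no libraries. An excess of calls in WT does not show that genes responded differently, so the difference between the responses was tested itself. By that test no gene passed (0.00%) with edgeR. An unadjusted p under 0.05 was seen in 519 of 14188 genes, a share below 0.05 itself, so that count shows no excess. DESeq2 called 3 genes and limma-voom none.

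Genes with the smallest p of that test differed in direction. Lgals8 (galectin-8; chromosome 13, 12439415 to 12464944, minus strand), a lectin that marks damaged endosomes, had 8.86, 16.9 and 9.91 CPM at rest and 18.2, 16.7 and 15.3 CPM after running in MKO, against 8.11, 8.17 and 8.45 and 1.27, 0.443 and 1.55 CPM in WT. The MKO groups overlapped, the WT groups did not, and the difference of the responses was 3.4 ± 0.42 (adjusted p = 0.0565). That difference passed for Lgals8 with DESeq2 (adjusted p = 5.54e-11), with total counts alone (adjusted p = 0.0443) and without sedentary MKO replicate 2 (adjusted p = 0.00568). Antisense Heatr1 shares 155 exonic bases with Lgals8. Egr1, a zinc finger factor of the immediate-early class, rose in MKO from 8.99, 4.07 and 7.19 to 16.1, 33 and 27.4 CPM (1.91 ± 0.33, adjusted p = 0.00699), while exercised WT libraries held 140.4, 83.4 and 134 CPM. The difference of -2.99 ± 0.48 for Egr1 did not pass (adjusted p = 0.241), while it did with DESeq2 (adjusted p = 4.67e-07). The neuropeptide gene Gal, with 0 counts in all 3 sedentary WT libraries, stood at 0.567, 0.665 and 0.739 CPM in exercised WT and at 0.533, 0.601 and 0.907 and 1.16, 0.666 and 0.718 CPM in sedentary and exercised MKO muscle (adjusted p = 0.368). Adamtsl2, a microfibril-associated protein gene, had a log2 fold change of 1.79 ± 0.21 in MKO (adjusted p = 0.000944) and had 3.23 ± 0.24 in WT (adjusted p = 0.983 for the difference). Zcchc4, Thpo and Nkiras2 passed as increases in MKO with values of 0.66 ± 0.14, 0.53 ± 0.11 and 1.04 ± 0.25, and had negative values in WT (-0.35 ± 0.13, -0.25 ± 0.11 and -0.55 ± 0.25). Their differences did not pass either (adjusted p = 0.688, 0.784 and 0.983). In MKO the call of Zcchc4 was lost without sedentary replicate 1 or 2 or exercised replicate 2 or 4 (adjusted p = 0.0597 to 0.083), that of Thpo without sedentary replicate 2 or 3 or exercised replicate 2 or 4 (adjusted p = 0.0529 to 0.0884) and that of Nkiras2 without any 1 of the 6 MKO libraries (adjusted p = 0.0632 to 0.137). Thpo overlaps Chrd by 239 exonic bases and Nkiras2 overlaps Dnajc7 by 287, both on the opposite strand.

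**Figure D4:**
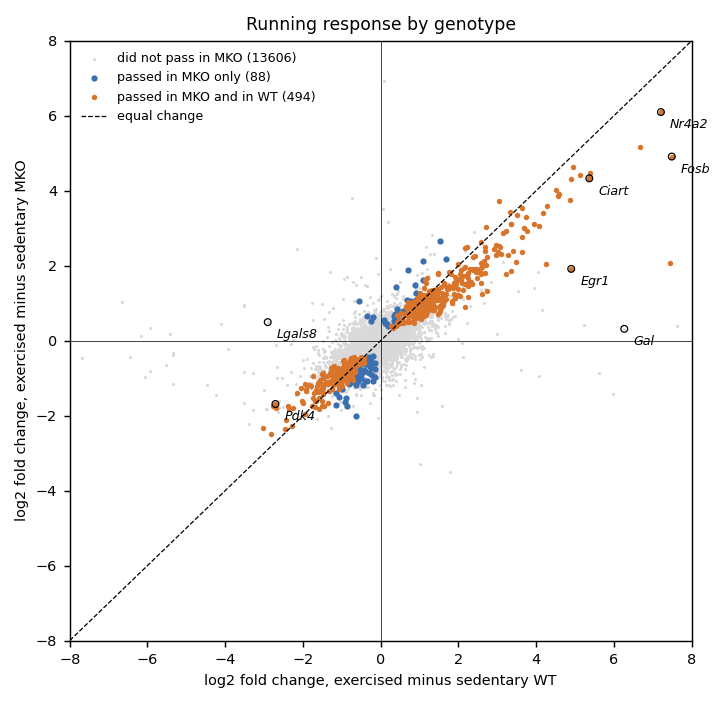
Log2 fold change after running in MKO (vertical) against WT (horizontal) for each gene tested; 4 genes lie outside the axes. Orange points passed in both genotypes (494), blue points in MKO only (88) and grey points did not pass in MKO, and the dashed line marks equal change. Nr4a2, Fosb, Ciart and Egr1 lie below the line, and Lgals8 and Gal, which did not pass in MKO, lie near the horizontal axis.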

How the data were processed

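The sources used here do not say which tool counted the reads, or how strand and multiple matches were treated. The authors deposited raw counts per Ensembl gene for 12 libraries; tools in the submitters' processing notes were HISAT2 2.2.1, StringTie 2.1.4, SAMtools 1.9, FastQC 0.12.1 and DESeq2 1.40.2, with builds GRCm38.p6 and mm10. Each library was assigned by its title; 42548 identifiers had a symbol and coordinates came from GENCODE M21 (GRCm38.p6). Counts of the 14188 genes with at least 10 counts in 3 or more of the 6 MKO libraries were scaled with TMM and tested with edgeR 4.0.16 (quasi-likelihood, 1 mean per group over 12 libraries, 8 residual degrees of freedom, adjusted p under 0.05). DESeq2 1.42.0, limma-voom (limma 3.58.1), other scalings and filters, a replicate block and left-out libraries were alternatives. No 2 libraries of a group agreed within counting noise (chi-square per degree of freedom at least 4.59). The script was tested on simulated data. Members, lists and tests were chosen with earlier results of these data known. The genes named were 7 targets, the 12 largest increases and 12 largest decreases at a mean of at least 1 CPM, up to 4 members per list with the smallest p, and the 8 smallest p of the difference from WT; any other gene was named after its values were seen. A gene that this rule names is not reported here. Intervals and the level of 3 counts cover counting error only.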

Additional observations from a re-analysis of the deposited data

How the results depend on the processing

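The count of 582 genes was 580 with RLE factors, 568 with limma-voom, 610 with DESeq2, 584 and 586 with the other filters, 462 without a filter and 401 in a fit of the 6 MKO libraries alone. Total counts alone gave 848. Leaving out 1 library gave 318 to 629, the lowest without exercised MKO replicate 2; leaving out sedentary MKO replicate 3 and exercised MKO replicate 4 together, an alternative chosen after seeing the data, gave 359. With a replicate block 357 genes passed, 239 higher and 118 lower, on 4 residual degrees of freedom; same-numbered MKO libraries did not deviate together (correlations of deviations -0.04 and 0.08 for numbers 1 and 2), so the numbers were not taken as pairs. For the difference from WT the count of 0 became 3 with DESeq2, 1 with total counts alone, 2 with both of those libraries left out, and 0 to 3 with 1 library left out; the replicate block gave 0. Of 85 genes tested whose values are given, 76 passed; 41 kept direction and call in all 22 settings, 35 lost the call in at least 1 (24 of them with the block) and none of the 76 reversed. Sln lay between -0.45 (without exercised MKO replicate 4) and 2.17 with 1 library left out, and turned to -0.21 with that library and sedentary replicate 3 left out. Atp2a1 was -0.037 with total counts alone. Atp2a2 was 0.52 with limma-voom, 0.26 with the replicate block, 0.04 without exercised MKO replicate 1, and 0.34 and 0.32 without sedentary MKO replicates 1 and 2; its range with 1 library left out was -0.50 to 0.34. Ppargc1a passed with the replicate block (adjusted p = 0.00476, edgeR). The cause of these changes was not tested. Genes under about 0.222 CPM, the level of 3 counts in the least favourable MKO library, could not be followed at this depth.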
